A study of Mus musculus with 2 samples.

Results

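Polycomb repressive complex 2 (PRC2) is the enzyme that methylates histone H3 on lysine 27. The 10 genes described here encode its catalytic subunits EZH2 and EZH1, the scaffold subunits EED and SUZ12, the histone-binding subunits RBBP4 and RBBP7, and 4 accessory subunits, MTF2, PHF19, JARID2 and AEBP2. They were found by symbol among the 57011 gene labels of the deposited table. Each of the 10 had 1 row, and 0 lay in a row that merges several genes.

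The study sequenced RNA of 2 patient-derived xenografts, human tumors passaged in mice that lack T cells. The primary library came from a primary gastroenteropancreatic neuroendocrine tumor in the flank, and the metastatic library from a metastatic tumor of that type in the peritoneal cavity. Both were carried in athymic nude mice (strain Foxn1nu), with no treatment of the mice given. The labels name mouse as the organism while the submitters' processing notes name the human build GRCh38, and no source used here says how reads from mouse cells were handled. Tumor origin and graft site differed together and cannot be told apart, and the labels do not say whether the tumors came from the same patient.

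PRC2 silences developmental genes and keeps lineage choices stable. A core of EZH2 or EZH1 with EED, SUZ12 and RBBP4 or RBBP7 carries the activity. EZH2 is the more active enzyme and is typical of dividing cells, while EZH1 is less active and is the form retained in many resting cells. The core joins 1 of 2 sets of accessory proteins. PRC2.1 holds a Polycomb-like protein (MTF2, PHF19 or PHF1) that binds unmethylated CpG-rich DNA. PRC2.2 holds JARID2 and AEBP2, which recognise histone H2A ubiquitinated by PRC1, the other Polycomb complex.

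Values were FPKM, a unit that scales fragment numbers to transcript length and sequencing total, so levels of different genes are on a scale per length. Each group had 1 library, so there was no replicate check of any difference and no p-value was computed. Log2 ratios are metastatic over primary with 1 FPKM added to each value, which understates differences of low genes, and genes past a 2-fold ratio on that scale are called higher or lower. The columns summed to 784987 FPKM in the primary library and 885319 in the metastatic one. Rescaling both to the same sum moved the median log2 ratio of all 13811 genes and loci with at least 1 FPKM in a library from 0.03 to -0.12. In these bulk tumors, fewer cells of a type and less RNA per cell cannot be told apart.

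The defining markers of the labelled tumor type were only partly present. Of 11 neuroendocrine markers found in the table, 7 reached 1 FPKM in a library, with 2 at least 2-fold higher in the metastatic library and 3 lower. Of all genes and loci, 9.22% were higher and 9.35% lower. UCHL1 and DDC were the higher ones, at 225 and 705 FPKM and at 48.1 and 103. PCSK1, INSM1 and SCG2 were the lower ones, at 19.9 and 2.74, at 3.54 and 0.271, and at 2.62 and 0.340. The chromogranin A gene CHGA was at 0 in each library, and the synaptophysin gene SYP was at 1.63 FPKM in the primary library and 1.96 in the metastatic one. A listed 0 may mean a failed estimate, because LDHA, which nearly all cells express, was also at 0 in both. The summed level of 6 epithelial markers was 1442 FPKM in the primary library and 2530 in the metastatic one. Of these, 5 had ratios above 0, while KRT7, at 146 and 61.2 FPKM, went the other way. Summed markers of other cell types differed too. They were 557 and 180 FPKM for 9 fibroblast markers, 27.1 and 4.80 for 8 endothelial markers, of which KDR was at 0 in both, and 4.01 and 12.5 for 7 leukocyte markers, of which CD3E was at 0 in both. COL1A2, at 474 and 149 FPKM, carried the fibroblast sum, and EGFL7, at 19.1 and 1.58, the endothelial sum. Of 7 expressed fibroblast markers, 6 had ratios below 0 and 1, DCN, at 0.370 and 2.89 FPKM, above. The 3 expressed endothelial markers had ratios below 0, while VWF, under 1 FPKM, stood at 0.259 and 0.505. LYZ, at 2.72 and 12.0 FPKM, carried the leukocyte sum, while CSF1R was at 1.06 and 0.243 and PTPRC at 0.111 and 0.0403. Hepatocyte markers summed to 163 and 556 FPKM over 6 genes, and acinar markers to 112 and 484 over 6 genes, with AMY2A at 0 in both. Single genes carried these sums, FGB at 111 and 499 FPKM and CPA1 at 101 and 473. Of 5 expressed hepatocyte markers, 4 had ratios above 0 and 1, CPS1, at 31.7 and 2.96 FPKM, below. Of 3 expressed acinar markers, 2 had ratios above 0 and 1, CTRB1, at 10.2 and 8.86 FPKM, below. The part of these cell types in the values of the PRC2 genes was not tested.

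All 10 subunit genes had at least 1 FPKM in both tumors, and with the values as deposited none differed by 2-fold. In the metastatic library 0 of 10 were at least 2-fold higher, against 9.22% of all genes and loci, and 0 of 10 were at least 2-fold lower, against 9.35%. In either direction it was 0 of 10 against 18.6%. For 10 genes the last share comes to fewer than 2, so a count of 0 is not a result about these genes. With both libraries rescaled to the same sum, 1029 genes and loci were higher and 1813 lower in place of 1273 and 1291, and AEBP2 was among the lower ones. The log2 ratios ran from -0.89 for AEBP2 to 0.37 for EZH2, with a median of -0.14 over the 10 genes against 0.03 over all genes. EZH2, SUZ12, RBBP4, RBBP7 and PHF19 had ratios above 0, and EZH1, EED, MTF2, JARID2 and AEBP2 had ratios below 0. The signs of SUZ12 and RBBP4 flipped on rescaling to the same sum, to -0.09 and -0.15, and by the 75th percentile, to -0.01 and -0.07. RBBP4 also flipped by the median ratio, to -0.03. The 10 genes summed to 357 FPKM in the primary library and 381 in the metastatic one.

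**Figure D1:**
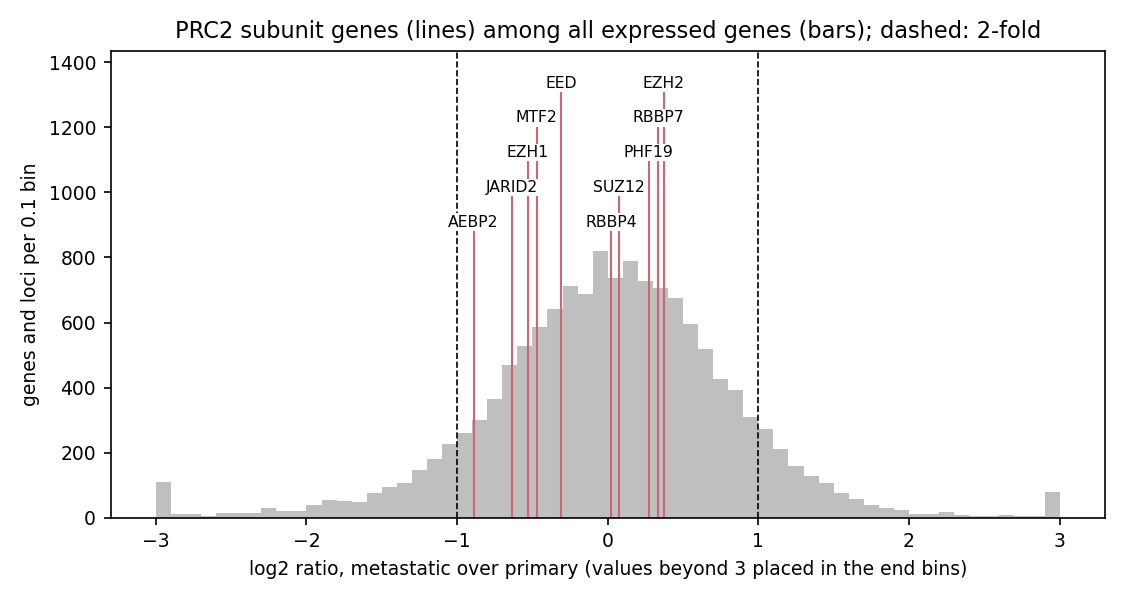
Log2 ratio (metastatic over primary, x axis) of 13811 genes and loci with at least 1 FPKM in a library, as the number per bin of 0.1 (bars, y axis), with the 10 PRC2 subunit genes as vertical lines whose heights carry no value. All 10 lines lie between the dashed 2-fold limits, with AEBP2 at -0.89 nearest to one.

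The order of levels was similar in both libraries. RBBP7 was the most abundant and RBBP4 came next in each, while JARID2 was the ninth and EZH1 the lowest in each. Between these ends, the primary order was MTF2, PHF19, AEBP2, EED, EZH2 and SUZ12, and the metastatic order was PHF19, EZH2, MTF2, EED, SUZ12 and AEBP2. EZH2 thus moved from rank 7 to rank 4 and AEBP2 from rank 5 to rank 8. Since no spread between replicates was measured, whether neighbours in these orders differ cannot be said. EED and EZH2, for example, lay at 21.6 and 20.7 FPKM in the primary library.

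**Figure D2:**
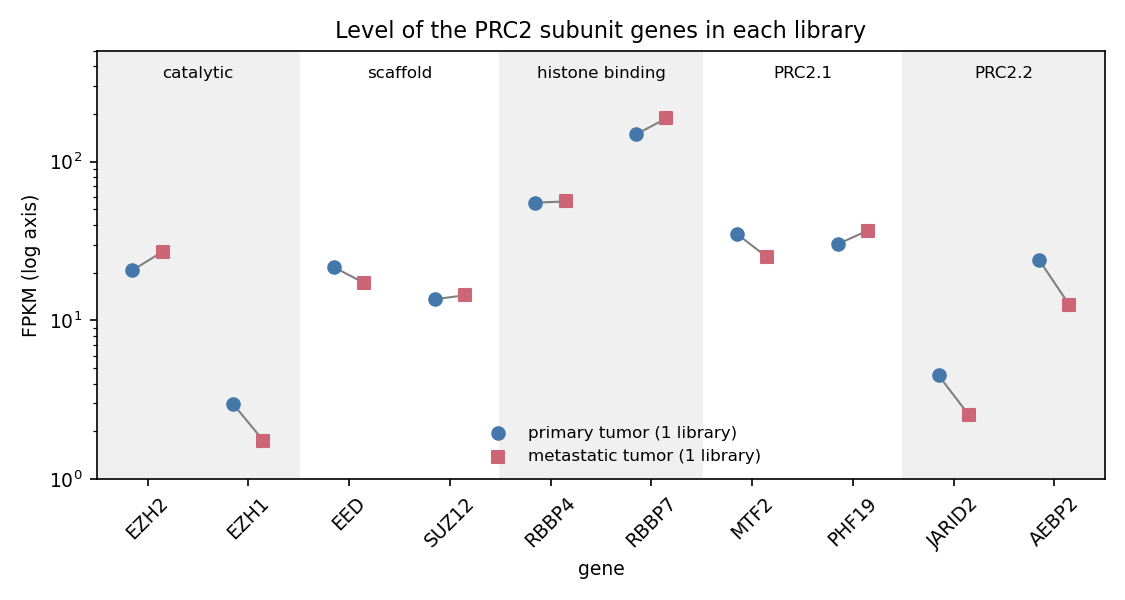
Level of each PRC2 subunit gene in FPKM (log axis) in the primary (circles) and metastatic (squares) library, 1 library each, grouped by role, with lines joining the same gene. RBBP7, at 149 and 188 FPKM, stands highest and EZH1, at 2.97 and 1.74, lowest.

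Of the catalytic subunits, EZH2 was the prevalent transcript in both tumors and the more so in the metastatic one. EZH2 was at 20.7 FPKM in the primary library and 27.1 in the metastatic one, a log2 ratio of 0.37. That level exceeded those of 65.8% of expressed genes in the primary library and 71.0% in the metastatic one. EZH1 was at 2.97 FPKM in the primary library and 1.74 in the metastatic one, a log2 ratio of -0.53. EZH1 was thus among the lower expressed genes, above 24.8% of them in the primary library and 18.1% in the metastatic one.

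The level of EZH2 was 6.98 times that of EZH1 in the primary library and 15.5 times in the metastatic one. EZH2 made up 87.5% and 94.0% of the summed FPKM of both enzymes. The EZH2 to EZH1 ratio was 2.23 times as high in the metastatic library, a log2 difference of 1.15. A ratio within a library does not depend on how that library was scaled. With 1 FPKM added to each gene the log2 difference was 0.90, under 2-fold, because EZH1 is low. The part of it that comes from EZH1 rests on a level under 3 FPKM, at an unknown number of fragments.

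The genes whose levels over the 2 libraries lay closest to those of EZH2, by distance on the log2(FPKM + 1) scale, were GTF2F1, F2RL1 and BROX. GTF2F1, a subunit of the general transcription factor TFIIF, stood at 20.9 and 26.9 FPKM. F2RL1, a protease-activated receptor, stood at 21.0 and 26.4, and BROX at 20.3 and 27.8. Over 2 libraries such closeness is a match of 2 numbers only.

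The scaffold subunits lay in the same range as EZH2. EED, whose beta-propeller binds trimethylated lysine 27 and stimulates the enzyme, was at 21.6 FPKM in the primary library and 17.2 in the metastatic one, a log2 ratio of -0.31. SUZ12, the platform on which the other subunits assemble, stood at 13.6 and 14.4 FPKM, a log2 ratio of 0.08. EZH2 and EED thus went apart while SUZ12 stayed within 6% of its primary level. EZH2 was 0.958 times the level of EED in the primary library and 1.57 times in the metastatic one. Against SUZ12 it was 1.52 and 1.88 times, and EED against SUZ12 was 1.59 and 1.20 times. Both enzymes together were 1.74 and 2.01 times SUZ12. The partial copy SUZ12P1, whose reads could be exchanged with those of SUZ12, was listed at 4.35 and 6.73 FPKM. How far such an exchange affects the value of SUZ12 was not tested.

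The histone-binding subunits were far above the other core genes. RBBP7 was at 149 FPKM in the primary library and 188 in the metastatic one, a log2 ratio of 0.33. RBBP4 stood at 55.2 and 56.1 FPKM, a log2 ratio of 0.02. RBBP7 was 2.69 times RBBP4 in the primary library and 3.35 times in the metastatic one, and made up 72.9% and 77.0% of their sum. RBBP4 and RBBP7 also serve in other complexes, among them the NuRD and SIN3 deacetylase complexes, the chaperone CAF-1 and the acetyltransferase HAT1, so their transcripts are not a measure of PRC2. The 6 RBBP4 pseudogenes in the table were all at or under 0.235 FPKM.

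Transcripts of those partner complexes gave a mixed picture. Of 7 expressed NuRD genes, 0 passed 2-fold, with a median log2 ratio of -0.12, or 0.13 without the trend over transcript length. MBD2, which binds methylated DNA, stood at 126 and 252 FPKM, with a log2 ratio of 0.995, and the deacetylase HDAC1 at 139 and 113. MTA3 stood at 42.2 and 32.2 FPKM. Of 9 expressed SIN3 genes, 0 passed 2-fold, with a median of -0.15, or -0.08 without that trend. BRMS1 stood at 25.5 and 48.7 FPKM, SIN3A at 15.4 and 9.09 and ARID4A at 26.7 and 18.5. Of all genes and loci, 18.6% passed 2-fold in either direction. Over lists of 7 and 9 genes, counts of 0 are thus not a result about these complexes. HAT1 stood at 81.9 and 61.4 FPKM and the CAF-1 subunit CHAF1A at 8.80 and 11.4. CHD4, CHD5, MTA1, MBD3, ARID4B and CHAF1B lay only in rows merged with other genes and were not counted.

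Among the accessory subunits, the Polycomb-like proteins went in different directions. MTF2 was at 35.0 FPKM in the primary library and 25.0 in the metastatic one, a log2 ratio of -0.47. PHF19 stood at 30.3 and 36.8 FPKM, a log2 ratio of 0.27. PHF19 was 0.864 times MTF2 in the primary library and 1.47 times in the metastatic one, so the more abundant of the pair was MTF2 in one tumor and PHF19 in the other. Their sum was 65.3 and 61.8 FPKM.

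Both PRC2.2 subunits were lower in the metastatic library, and as deposited they had the lowest log2 ratios of the 10 genes. AEBP2, a zinc finger protein, was at 24.0 FPKM in the primary library and 12.5 in the metastatic one, a log2 ratio of -0.89. Of all genes and loci, 11.5% had a lower log2 ratio than AEBP2. Without the pseudocount AEBP2 was at 52.0% of its primary level, and with both libraries rescaled to the same sum its log2 ratio was -1.06, past 2-fold. JARID2, a protein of the Jumonji family without demethylase activity, stood at 4.51 and 2.54 FPKM, a log2 ratio of -0.64. AEBP2 was 5.32 times JARID2 in the primary library and 4.91 times in the metastatic one, so this pair kept nearly the same proportion.

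By summed FPKM, the accessory transcripts thus lay further towards PRC2.1 in the metastatic library. AEBP2 made up 84.2% and 83.1% of the PRC2.2 sum. MTF2 and PHF19 together were 2.29 times JARID2 and AEBP2 together in the primary library and 4.12 times in the metastatic one. PRC2.1 subunits made up 69.6% of the summed FPKM of the 4 genes in the primary library and 80.5% in the metastatic one. The log2 difference between the libraries was 0.84, or 0.80 with the pseudocount, under 2-fold. As deposited, the PRC2.2 sum was 28.5 FPKM in the primary library and 15.0 in the metastatic one, beside the PRC2.1 sums of 65.3 and 61.8. As deposited, each of the 4 pairs of a PRC2.1 with a PRC2.2 gene went the same way, but with the trend over transcript length removed MTF2 against JARID2 turned to a log2 difference of -0.05. The smallest difference was MTF2 against JARID2, at 7.77 and 9.84 times, and the widest was PHF19 against AEBP2, at 1.26 and 2.95 times. These pairs share genes and are not 4 separate measurements. All 4 accessory genes together were 6.90 times SUZ12 in the primary library and 5.34 times in the metastatic one.

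**Figure D3:**
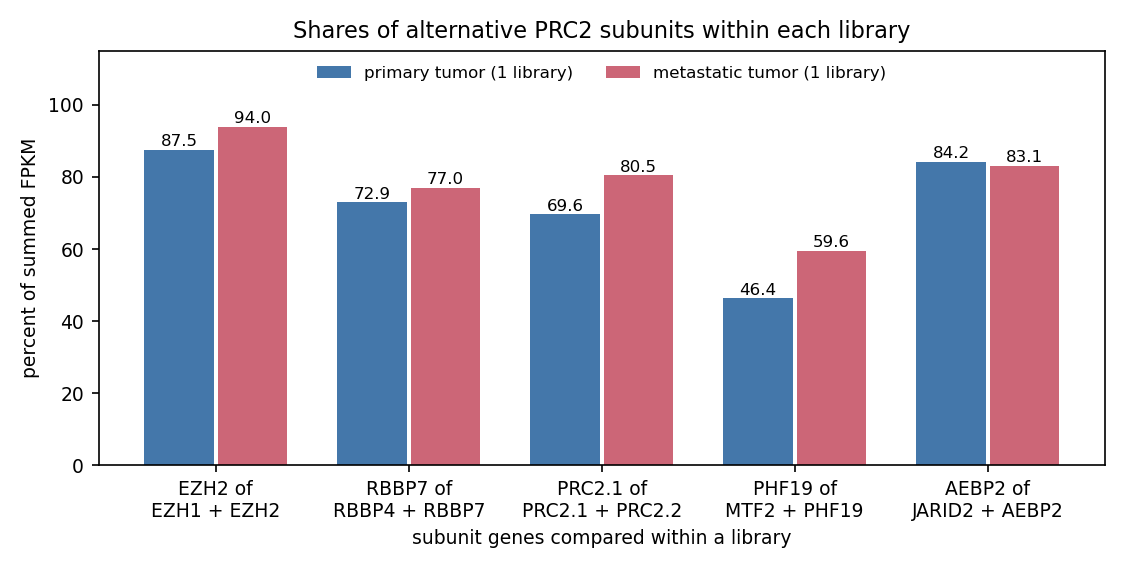
Percent of summed FPKM (y axis) taken by EZH2, RBBP7, the PRC2.1 genes (MTF2 and PHF19), PHF19 and AEBP2 within the genes named under each pair of bars (x axis), in the primary and metastatic library, 1 library each. The EZH2 share is 87.5% and 94.0%, the PRC2.1 share 69.6% and 80.5%, and the AEBP2 share of the PRC2.2 genes 84.2% and 83.1%.

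Other PRC2 accessory genes were at lower levels than MTF2, PHF19 and AEBP2, though PHF1, LCOR and LCORL were above JARID2 in both libraries. PHF1, the third Polycomb-like protein, was at 4.88 FPKM in the primary library and 3.75 in the metastatic one, summed over 3 rows of which 1 was above 0. LCOR, which encodes PALI1 as one of its products, stood at 9.43 and 7.47 FPKM, and its relative LCORL at 7.52 and 4.74. Values of LCOR and LCORL cover all products of these genes, not the PRC2 forms alone. EPOP, another PRC2.1 component, was listed at 0 in both libraries. With PHF1, LCOR and LCORL added, the PRC2.1 sum was 3.06 times the PRC2.2 sum in the primary library and 5.18 times in the metastatic one. Of the 5 expressed PRC2.1 genes, 4 had ratios below 0 and 1, PHF19, above, with a median log2 ratio of -0.31. EZHIP, an inhibitor of PRC2 activity, was listed at 0 in both libraries.

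Transcript length moved with these ratios. Across 9443 genes, which are not independent replicates, log2 ratio and the length of the longest mouse transcript of the same symbol had a Spearman coefficient of -0.25. JARID2 and AEBP2 had the longest transcripts of the 10, at 8353 and 5932 bases in mouse, and EED and RBBP7 the shortest, at 2067 and 2244. With the trend over length removed, the log2 ratio was -0.66 for AEBP2 and -0.35 for JARID2. EED then stood at -0.45, RBBP7 at 0.23 and EZH2 at 0.33. The difference between the accessory sets was 0.60 on the log2 scale in place of 0.80, and that between EZH2 and EZH1 0.78 in place of 0.90. The 4 accessory genes, EZH2, EZH1, EED and RBBP7 kept the sign of their ratio with every rescaling and with the trend over length removed. The rest of the 9 alternatives run could not change a sign. A different or absent pseudocount cannot alter it, and the choice of row or of merged loci left the values of these genes unchanged.

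**Figure D4:**
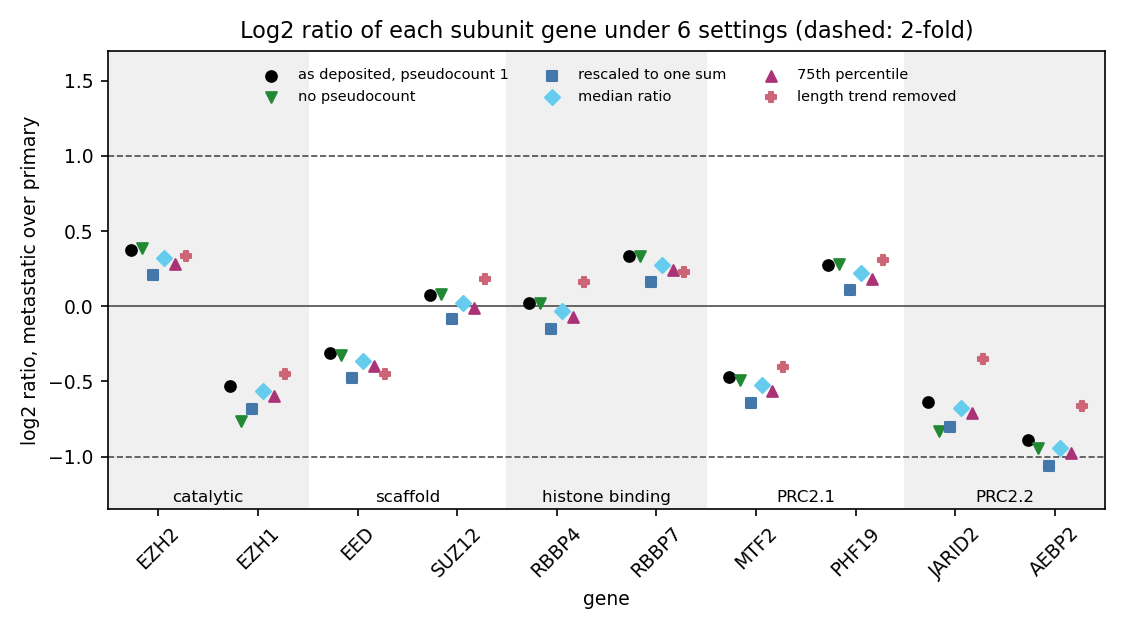
Log2 ratio (metastatic over primary, y axis) of each PRC2 subunit gene (x axis) for the values as deposited and 5 other settings, with dashed lines at 2-fold. AEBP2 passes the line only when both libraries are rescaled to the same sum (-1.06), and SUZ12 and RBBP4 lie on either side of 0.

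Enzymes that remove or compete with lysine 27 methylation had ratios below 0 in all 4 genes listed. Of all genes and loci, 51.8% had ratios above 0, or 43.0% after rescaling to the same sum. The demethylases KDM6A and KDM6B stood at 17.5 and 8.47 FPKM and at 3.12 and 2.48, with log2 ratios of -0.96 and -0.24. Their median was -0.60, or -0.37 without the trend over transcript length. Of the acetyltransferases that modify the same lysine, EP300 was at 15.7 FPKM in the primary library and 6.16 in the metastatic one, a log2 ratio of -1.23. CREBBP, its paralog, stood at 13.0 and 6.79 FPKM, a log2 ratio of -0.85. The median of EP300 and CREBBP was -1.04, or -0.74 without the trend over transcript length. Of 5 genes for methylation of lysine 36, a mark that hinders PRC2, 1, ASH1L, passed 2-fold downward and 0 upward. Of all genes and loci, 9.35% passed downward and 9.22% upward, and such a count over 5 genes is not a result about them. ASH1L stood at 27.3 and 6.24 FPKM, NSD3 at 23.0 and 16.3 and NSD2 at 8.88 and 7.64. The median log2 ratio of the 5 was -0.19, or 0.08 without the trend over transcript length.

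PRC1 genes, which act with PRC2 by ubiquitinating histone H2A, went both ways. Of 19 expressed, 2 passed 2-fold upward and 2 downward (0 and 2 after rescaling to the same sum). The median log2 ratio was -0.39, or -0.26 without the trend over transcript length. Of all genes and loci, 9.22% passed upward and 9.35% downward as deposited. RING1 and PCGF2 were listed at 0 in both libraries, and BMI1 had no usable row, so the list lacks these subunits. PHC1 was at 11.8 FPKM in the primary library and 2.47 in the metastatic one, BCORL1 at 5.62 and 1.69, and YAF2 at 26.9 and 58.9. L3MBTL2, the other higher gene, stood at 5.35 and 12.6 FPKM and was named after its value was seen. Of 7 expressed genes of the PR-DUB complex, which removes the PRC1 mark, 0 passed 2-fold, 2 had ratios above 0 and 5 below. Their median was -0.43, or -0.12 without the trend over transcript length. Among them MBD5 stood at 9.27 and 5.17 FPKM, FOXK1 at 11.6 and 7.21, and MBD6 at 107 and 74.9.

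The SWI/SNF remodelers, which oppose Polycomb silencing, had a median log2 ratio of 0.22 over 14 expressed genes, or 0.05 after rescaling to the same sum. Of the 14, 1 passed 2-fold upward and 0 downward, or 0 and 1 after that rescaling. Of all genes and loci, 9.22% passed upward and 9.35% downward as deposited, so these counts are not a result about the remodelers. SMARCE1 and BRD9 had no usable row, and SMARCB1 was under 1 FPKM in both libraries. The alternative ATPases went apart. SMARCA4 was at 231 FPKM in the primary library and 519 in the metastatic one, and SMARCA2 at 130 and 67.9, with log2 ratios of 1.17 and -0.93. SMARCD1 stood at 40.2 and 72.1 FPKM.

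The E2F factors control genes of the cell cycle, EZH2 among them. The median log2 ratios of the E2F and RB family and of the proliferation genes were above 0 with every scaling, and their part in the EZH2 values was not tested. Of 12 expressed E2F and RB family genes, 7 had ratios above 0, 1 passed 2-fold upward and 0 downward, and the median log2 ratio was 0.24. E2F1 was at 4.59 FPKM in the primary library and 11.7 in the metastatic one, its partner TFDP1 at 20.7 and 41.2, and E2F4 at 22.7 and 40.6. The other 5 of the 12 had ratios below 0, among them RBL2, at 7.98 and 4.13 FPKM, which was named after its value was seen. Of 20 proliferation genes, 18 had ratios above 0, 2 passed 2-fold upward and 0 downward, and the median was 0.32. Of all genes and loci 51.8% had ratios above 0 and 9.22% passed 2-fold upward, a share near that of the 2 genes. After rescaling to the same sum, 12 of the 20 had ratios above 0, against 43.0% of all genes and loci, and 1 passed 2-fold upward. The 2 as deposited were MCM3, at 20.7 and 51.6 FPKM, and PCNA, at 80.7 and 168. MCM4 stood at 120 and 239 FPKM. The proliferation marker MKI67, at 24.5 and 18.2 FPKM, went the other way.

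Developmental regulators that are known PRC2 targets in other cells were mostly under 1 FPKM. Of 34 such genes, 9 reached 1 FPKM in a library and 8 were listed at 0 in both. Of the 9, 0 passed 2-fold upward and 1 downward, against 9.22% and 9.35% of all genes and loci. Their median log2 ratio was -0.18, or 0.06 with a filter of 5 FPKM. GATA2 was at 6.98 FPKM in the primary library and 3.52 in the metastatic one, and PAX6 at 10.9 and 6.55. CDKN2A, which encodes a cell cycle inhibitor and was named after its value was seen, was the most abundant of the list at 815 and 997 FPKM.

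Over these lists, leaving out the 10 subunit genes, 6 of 111 expressed genes passed 2-fold upward (5.41%) and 5 downward (4.50%), against 9.22% and 9.35% of all genes and loci. After rescaling to the same sum the counts were 2 higher and 8 lower. The median log2 ratio as deposited was -0.05.

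**Figure D5:**
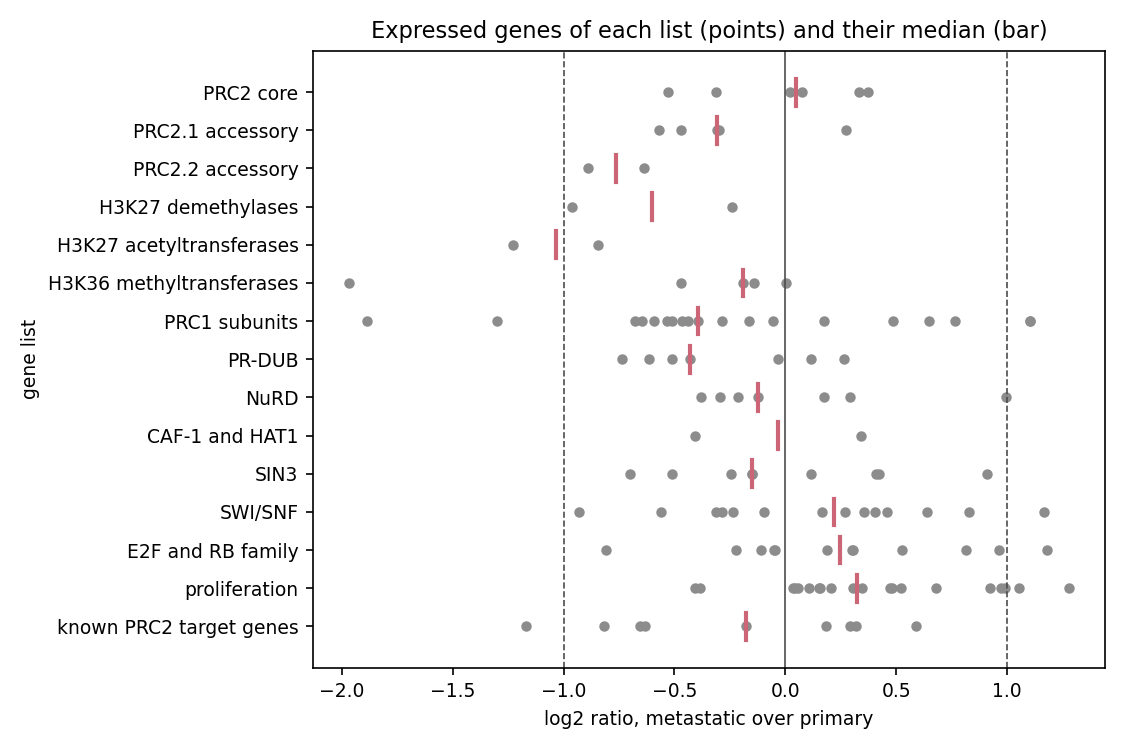
Log2 ratio (metastatic over primary, x axis) of every gene with at least 1 FPKM in a library (points) in each gene list (y axis), with the list's median as a bar and dashed lines at 2-fold. The PRC2.2 genes lie at -0.89 and -0.64, and 18 of 20 proliferation genes lie above 0 (12 after rescaling to the same sum).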

How the data were processed

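The authors deposited FPKM in a table of 62573 rows with 1 column for each of 2 libraries. Per the submitters' processing notes, the build was GRCh38 and the tools were STAR 2.7.6a, Cufflinks 2.2.1 and bcl2fastq 2.18.0.12, their roles unstated. Annotation, filters and handling of mouse reads: not given in the sources used here. Coordinates and sequences were not used here. Depth is unknown, since fragment counts were not part of the table. Among 6509 low rows (between 0 and 1 FPKM in each column), the quotient of the columns matched a quotient of whole numbers no larger than 5, to within 0.01%, in 41.9%. Multiplying 1 column by 1.05 left 0.676%. A fragment may thus carry a similar FPKM in each column, and whether each was divided by its own total is not known.

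Rows with the same label were summed. Rows that merge several symbols were used for a gene if all others were clones or noncoding RNAs. The log2 ratio used a pseudocount of 1 FPKM, no rescaling and a filter of 1 FPKM in a library. The members and the 16 pathway and 7 marker lists were chosen with earlier results of these data known. Named genes were the members, PHF1, EPOP, LCOR, LCORL, EZHIP, KDM6A, KDM6B, E2F1, MKI67, the expressed genes of every other list with the widest log2 ratios (up to 3 a list), and the 3 genes nearest to EZH2. Some genes that this rule takes are left out of the text. Genes named for cell type markers came from the marker lists. LDHA, L3MBTL2, RING1, PCGF2, SMARCB1, RBL2, CDKN2A, SUZ12P1 and the RBBP4 pseudogenes were named after their values were seen. Alternatives were pseudocounts of 0.1 and 0.5, 3 rescalings, the highest row of a label, no merged loci, other filters and a 4-fold threshold. No pseudocount, removal of the trend with mouse transcript length (lowess, statsmodels 0.14.6; lengths for 86.0% of genes with a usable symbol) and a wider PRC2.1 list were added after seeing the data. The 2-fold call was run on simulated data with planted 4-fold changes in higher expressed genes. That run does not bear on smaller differences or on genes of low level.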

Additional observations from a re-analysis of the deposited data

How the results depend on the processing

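No paired analysis was possible because each group held 1 library, and for the same reason no library could be left out. The log2 difference of EZH2 against EZH1 passed 2-fold with a pseudocount of 0.1 (1.12) or 0.5 (1.01) and with none (1.15), since EZH1 is low, and ran from 0.78 upward over 9 alternatives. That of PRC2.1 against PRC2.2 ran from 0.60 to 0.84 over 10. The median of the 10 subunit genes ran from -0.31 to -0.09. With both libraries rescaled to the same sum, 1 subunit gene, AEBP2, was at least 2-fold lower, and 36.2% in place of 49.6% of the genes that differed by 2-fold were higher. Genes and loci differing by 2-fold numbered 2564, or 424 at a 4-fold threshold and 1415 without the length trend, where fewer genes could be used. At 4-fold, 0 in place of 11 genes of the other lists passed. The unknown depth limits EZH1 and JARID2 most.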
